A study of Mus musculus with 18 samples.

Results

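The genes described here encode the proteins of the cytosolic ribosome. They were chosen by symbol: Rpl or Rps followed by a number and at most 1 further letter a, x or l, together with Rplp0 to Rplp2 and Rpsa, without the pseudogenes named -ps. Of 57180 gene identifiers in the table, 83 matched, and 78 of these had enough counts to be among the 16738 genes tested. RNA came from the hippocampus of adolescent male wild-type C57BL/6J mice, with 6 mice and 6 libraries in each of 3 groups. Control mice were left untreated. CSDS mice went through chronic social defeat stress, in which a mouse is repeatedly exposed to an aggressive resident. Exercised CSDS mice met the same defeat and trained aerobically, beginning 1 week ahead of the defeat and going on through it. No group of trained mice without defeat was analysed here, so training is compared only on top of CSDS.

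A ribosome joins a large and a small subunit, each made of ribosomal RNA and many proteins used in about equal numbers, and most of these proteins are encoded by a single active gene with many processed copies elsewhere in the genome. Their messages are short and abundant, and many begin with a C and a run of pyrimidines, the 5′ terminal oligopyrimidine (TOP) motif through which mTOR signalling controls how much they are translated. In neurons, where synthesis of new protein accompanies lasting synaptic change, messages of these genes are found in dendrites and axons as well as in the cell body.

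Start sites of the genes are shown first, since many messages of such genes begin with the TOP motif. RefSeq start regions (GRCm38.p6, 250 bases before to 50 after each annotated start, 300 in all) were found for 57 of the 78 genes tested. A start base C followed by 4 further C or T stood at an annotated start of 13 of the 57 (22.8%), against 813 of 27025 genes in the table (3.01%). Within 10 bases of a start the same 5-base run was found in 31 of 57 (54.4%), against 28.8% of all genes. These 5 named genes have such a start. Each line runs from 40 bases before the start to 20 bases from it on, and the capitals mark the first 5 bases from the RefSeq start.

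Rps27, chr3:90213629-90213688, minus strand: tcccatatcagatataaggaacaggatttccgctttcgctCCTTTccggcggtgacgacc

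Rpl38, chr11:114668540-114668599, plus strand: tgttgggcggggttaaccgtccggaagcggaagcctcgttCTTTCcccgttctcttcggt

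Rplp2, chr7:141447611-141447670, plus strand: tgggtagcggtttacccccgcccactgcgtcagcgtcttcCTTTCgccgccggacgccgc

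Rps18, chr17:33955646-33955705, minus strand: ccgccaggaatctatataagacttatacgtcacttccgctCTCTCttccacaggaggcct

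Rps6, chr4:86857348-86857407, minus strand: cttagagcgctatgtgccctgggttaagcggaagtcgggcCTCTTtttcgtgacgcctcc

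These 3 belong to the genes that varied least between mice and have no such run at the annotated start.

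Rplp0, chr5:115559427-115559486, plus strand: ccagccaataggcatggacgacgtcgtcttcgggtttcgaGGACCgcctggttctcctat

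Rpl4, chr9:64173347-64173406, plus strand: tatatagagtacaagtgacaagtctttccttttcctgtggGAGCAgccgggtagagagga

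Rpsa, chr9:120127726-120127785, plus strand: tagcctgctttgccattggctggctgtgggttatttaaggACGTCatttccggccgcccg

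Over both strands of the 300-base regions, CCGGAAG was found in 24 of the 57 genes (42.1%, against 9.93% of all genes in the table). CTTTCC was found in 30 of 57 (52.6%, against 29.3%). The motifs were searched separately and their matches may overlap. The median spread between mice, as an SD in log2 CPM within groups, was 0.40 over the 13 genes with a pyrimidine start and 0.39 over the other 44.

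Libraries held 18911080 to 24136591 estimated counts. Levels are given as CPM, the count relative to library size after TMM scaling, and log2 CPM with a prior count of 2. CPM compare a gene between mice, and levels of different genes are compared only per kilobase of transcript. Control replicate 2 stood apart in tissue make-up: the median of 8 dentate granule cell markers was 3.23 log2 CPM there against 5.37 to 6.45 in the other libraries, and the median of 8 neocortical markers 7.15 against 4.82 to 5.44. All 8 dentate markers and all 8 general neuron markers passed the filter on low counts. In bulk tissue, fewer cells of a type and less RNA per cell cannot be told apart.

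Per kilobase of transcript, Rplp1, an acidic protein of the P stalk on which elongation factors dock, had the highest level of the 78, a mean of 639.8 CPM per kilobase. Rps15, a small subunit protein near the decoding centre, followed at 595 CPM per kilobase. The lowest values were those of Rpl12 at 10.5 and Rpl5 at 11.7 CPM per kilobase, where Rpl12 sits at the base of the stalk and Rpl5 carries the 5S ribosomal RNA. The annotation lists a single full-length coding transcript for each of these 2, of 1242 and 2045 bases, and levels per kilobase rest on that length. Either may be longer than the message counted, which would make these values, and their rank, too low.

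Several paralogs were at or near 0. Rpl10l, Rpl6l and Rpl32l had no count in any library, which allows up to 0.125 to 0.159 CPM per library at 3 counts, for counting error only. Rpl39l had 19 counts over 12 libraries, and Rpl3l, the striated muscle form of Rpl3, had 62 counts over 17 libraries. Rps27l, a paralog of Rps27 that p53 induces, was measured at 18.9 CPM per kilobase against 259 CPM per kilobase for Rps27. Rps4l, a paralog of the X-linked Rps4x, stood at 28.3 CPM per kilobase against 269 CPM per kilobase.

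Processed copies bear on these levels, since reads that fit several genes are divided by the counting. At 95% identity or more over at least 80% of the copy and 200 bases, 574 copies of 71 members were found in GENCODE M21, of which 336 had counts. For Rpl10, a late-joining large subunit protein near the peptidyl transferase centre, 68.5% of the reads of gene and copies together lay in the copies, chiefly Rpl10-ps3. For Rpl27a the share was 53.4%, for Rps13 43.5% and for Rps23 43.2%. Values of these genes are therefore uncertain.

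The genes moved between mice nearly as one block. A first principal component held 90.7% of the variance of the 78 genes over the 18 libraries, and 93.1% after group means were removed. The 3 groups accounted for 5.14% of that variance. The median level of the 78 genes was 6.21, 7.27 and 7.49 log2 CPM in control mice (lowest, median and highest), 6.72, 6.94 and 7.45 in CSDS mice, and 6.52, 7.31 and 7.47 in exercised CSDS mice. Both extremes of all 18 libraries were control mice, replicates 6 and 1, so the ranges of the other groups lay inside that of the controls. The share of all counts that fell on the genes was 0.814% in control replicate 6 and 1.68% in control replicate 1.

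**Figure D1:**
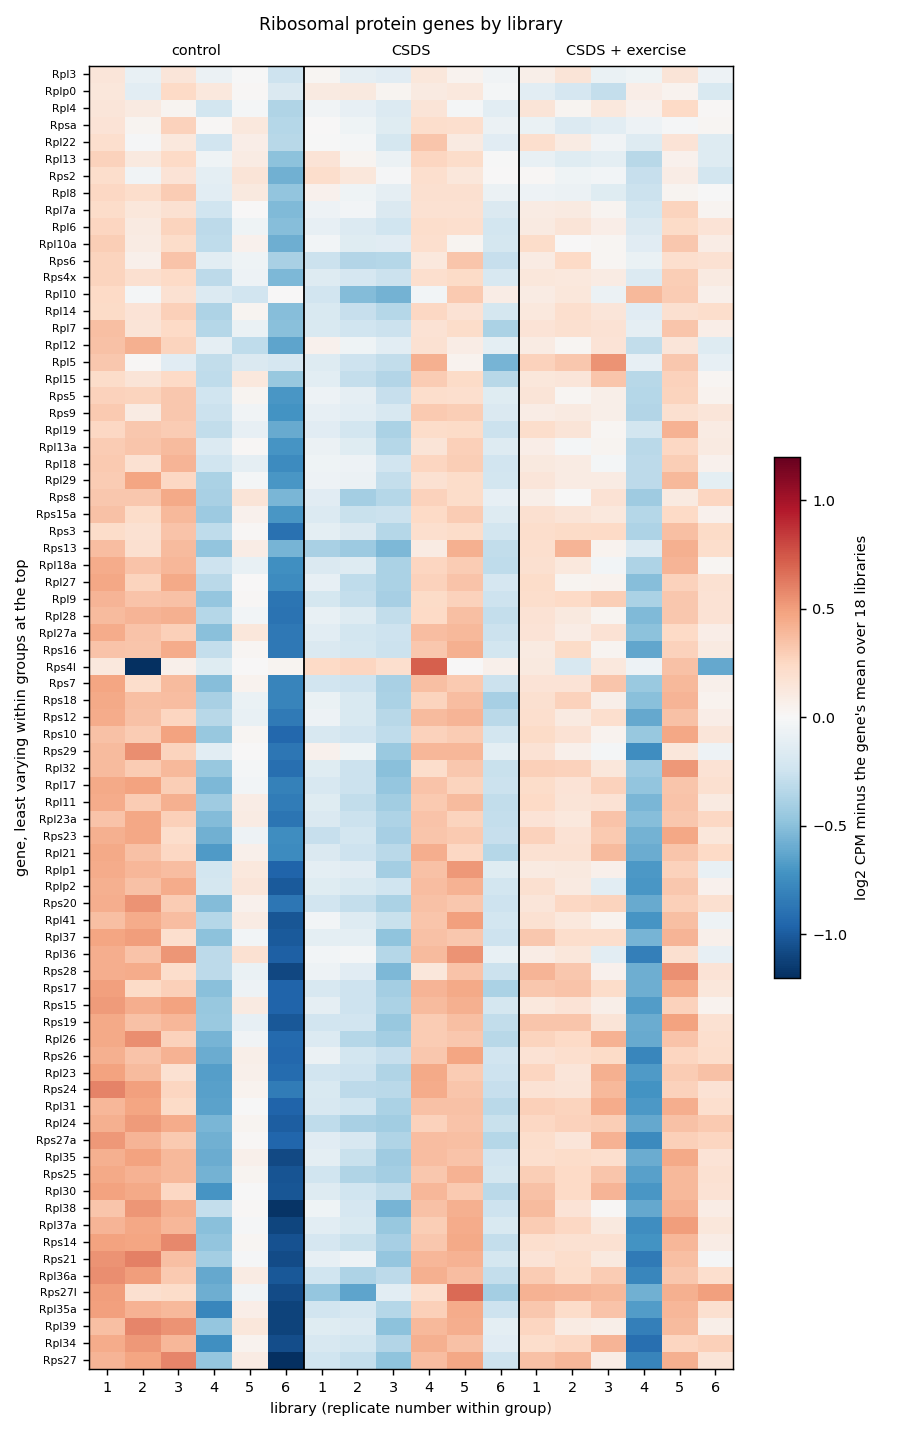
Each row is 1 gene, with 77 of the 78 drawn, ordered from the least to the most varying within groups, and each column 1 library; colour is log2 CPM minus the gene's mean over the 18 libraries. Whole columns share a colour: control replicate 1 is above the mean for 77 of 77 genes drawn, and control replicate 6 for 2 of 77.

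In control replicate 6, 74 of the 78 genes had their lowest level of all libraries, and all 78 were higher in control replicate 1 than in control replicate 6. In exercised replicate 4, 75 genes lay below their own mean over all libraries, and in control replicate 4, 76 did. In CSDS replicates 4 and 5, 77 genes lay above it, while replicates 1, 2, 3 and 6 of that group had 2 to 9 above. From the lowest to the highest library a gene changed by a median of 2.46 fold, from 1.32 fold for Rpl3 to 3.97 fold for Rps4l.

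Other measures moved with this block. Control replicate 6 also had the lowest median of the 78 mitochondrial ribosomal protein genes, 4.10 log2 CPM of a range up to 4.79, and of 80 nuclear-encoded respiratory chain genes, 5.46 of a range up to 6.68. Mitochondrially encoded genes took 1.89% of its counts and 3.61% of those of control replicate 1, within a range of 1.71% to 5.10%. The 1795 other tested genes with transcripts of up to 1000 bases had a median deviation from their means of -0.40 log2 in control replicate 6 and 0.21 in control replicate 1. After each library's trend with transcript length was removed, the median of the ribosomal protein genes ranged from 6.67 to 7.29 log2 CPM, in place of 6.21 to 7.49. After removal of the trend with GC content it ranged from 6.17 to 7.51. RNA integrity was at least 7 in every sample by the labels, which give no value per mouse. The part of mitochondrial share, the other gene lists and RNA integrity in the block was not tested.

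**Figure D2:**
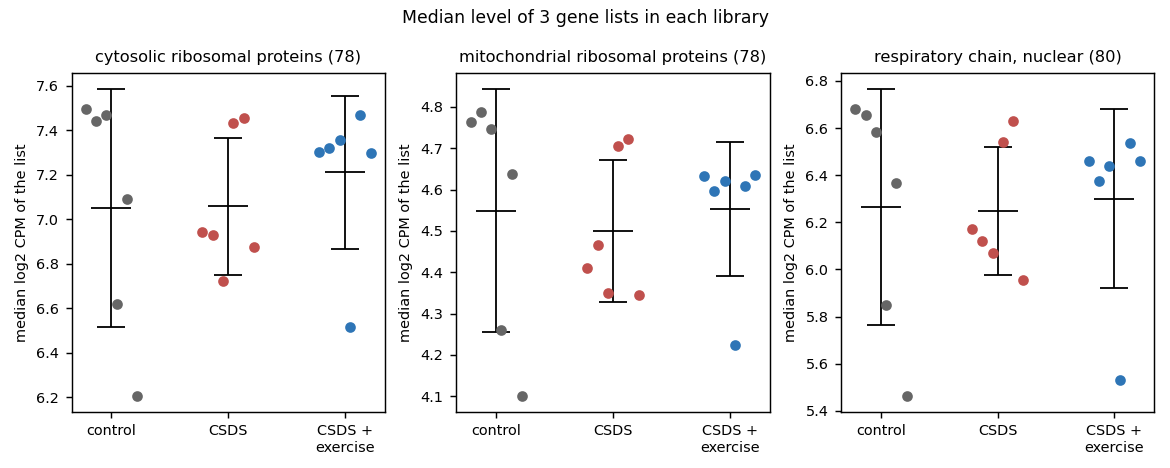
Points are libraries, lines the group mean and SD (n = 6) of the median log2 CPM over the cytosolic ribosomal protein genes, the mitochondrial ribosomal protein genes and the respiratory chain genes; the axes do not start at 0. Control replicates 4 and 6 and exercised replicate 4 are the lowest 3 libraries for the cytosolic genes, at 6.62, 6.21 and 6.52.

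The spread between mice of one group differed among the genes. Its median was 0.40 in log2 CPM, against 0.20 for the 7731 genes with a mean of at least 20 CPM, of which 9.03% lay above the ribosomal median. A spread of this size was also found in other sets, with a median of 0.41 over the 80 respiratory chain genes and 0.43 over the 1795 other genes with transcripts of up to 1000 bases. Under 0.2 lay 8 of the 78: Rpl3, Rplp0, Rpl4, Rpsa, Rpl22, Rpl13, Rps2 and Rpl8. Rpl3, which reaches toward the peptidyl transferase centre, had the smallest at 0.12. It lay at 520, 601 and 682 CPM in control mice, 561, 614 and 679 CPM in CSDS mice, and 584, 623 and 688 CPM in exercised mice. The ranges of the 3 groups overlapped over most of their width.

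The largest spread, 0.54, belonged to Rps27, a zinc finger protein of the small subunit. It lay at 34.3, 101 and 127 CPM in control mice, 60.3, 71.5 and 116 CPM in CSDS mice, and 48.7, 101 and 114 CPM in exercised mice. Control replicate 6 was the lowest and control replicate 3 the highest, so one group held both ends. Rpl34 and Rpl39, short basic proteins of the large subunit, followed at 0.52 and 0.50.

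Among the members, longer transcripts tended to vary less. A gene's length is that of the shortest annotated transcript with the coding length of its best-ranked one. The message counted may have another length. Across the 78 genes, Spearman's rho between the within-group SD and transcript length was -0.58, with GC content -0.19 and with mean CPM -0.38. Genes are not independent replicates and share the same 18 libraries, so these are descriptions. Rpl22, an RNA-binding protein of the large subunit, went against the order, with a transcript of 474 bases and an SD of 0.19. Rps20 and Rps24 went against it from the other side, with 3706 and 1613 bases and SDs of 0.42 and 0.46, and the annotated transcript of Rps20 is its sole coding one.

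**Figure D3:**
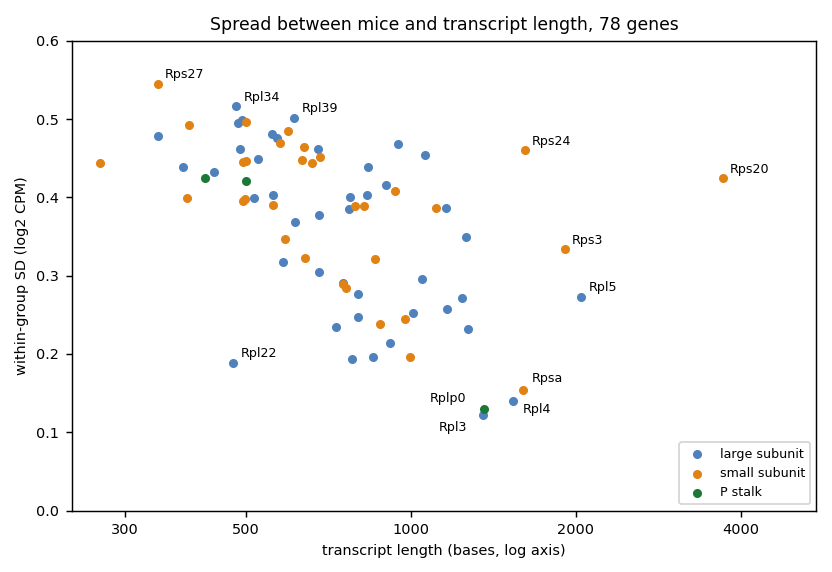
Each point is 1 of the 78 genes: transcript length in bases on a log axis against the SD of log2 CPM within groups. Rpl3, Rplp0, Rpl4 and Rpsa lie at the bottom, at 0.12 to 0.15, and Rps27 at the top, at 0.54.

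The comparison of CSDS with control mice asks whether defeat alone altered the genes. Of the 78, 0 were called by edgeR's quasi-likelihood test at a Benjamini-Hochberg adjusted p under 0.05, as of all genes (0%), and 0 reached an unadjusted p under 0.05, against 3.51% of all genes (1.83% higher and 1.68% lower). DESeq2 and limma voom called 0 members too. In 0 of the 78 did the ranges of CPM fail to overlap, against 0.239% of all genes. The median log2 fold change was -0.07, with 8 of 78 genes positive, against a median of 0.00 and 50% positive over all genes tested. The respiratory chain genes were similar, with a median of -0.08 and 6 of 80 positive. The mitochondrial ribosomal protein genes had -0.03 and 21 of 78. The mean of the library medians of the members was 7.05 ± 0.53 log2 CPM in control and 7.06 ± 0.31 in CSDS mice (SD, n = 6 each), so on that scale the sign was opposite.

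That small shift rested on single mice. Without control replicate 1 the median was 0.01 with 49 genes positive, without control replicate 2 it was 0.00 with 42, and without control replicate 6 it was -0.19 with 2. Large subunit genes were positive in 4 of 43, small subunit genes in 3 of 32 and stalk genes in 1 of 3. Shifts within the SEs of single members were not detectable with 6 mice a group, and larger ones could also go uncalled.

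Rps4l had the smallest p in this comparison. Its level was 8.94, 21.9 and 23.6 CPM in control mice, 21.7, 25.2 and 35.5 CPM in CSDS mice, and 14.2, 22.0 and 27.6 CPM in exercised mice. Control replicate 2, the mouse with few dentate markers, was far below the rest, CSDS replicate 4 was above them, and the groups overlapped. The log2 fold change for CSDS against control was 0.40 ± 0.20 (SE, n = 6 each, edgeR adjusted p = 0.993), and without control replicate 2 the log2 fold change of Rps4l, CSDS against control was 0.25. Rps2, a small subunit protein at the messenger entry tunnel, was the other member above 0.1, at 0.13 ± 0.11 (SE, edgeR adjusted p = 0.993).

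The comparison of exercised with unexercised CSDS mice asks what training added to defeat. No member passed edgeR's test here either, and 67 of 78 fold changes were positive. Of the 78, 0 were called (all genes 0%), and 4 had an unadjusted p under 0.05, against 15.6% of all genes: Rpl5 and Rpl10 were higher (8.1% of all genes) and Rplp0 and Rpl13 lower (7.46% of all genes). The ranges of CPM failed to overlap for 0 of 78, against 0.89% of all genes. The median log2 fold change was 0.15, against 0.02 over all genes, of which 53.5% were positive. The respiratory chain genes had a median of 0.08 with 59 of 80 positive, and the mitochondrial ribosomal protein genes 0.03 with 50 of 78. The library medians of the members averaged 7.06 ± 0.31 log2 CPM in CSDS and 7.21 ± 0.34 in exercised mice (SD, n = 6 each), a difference within the spread of either group.

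The number of members called depended on the method. limma voom with quality weights called 33 of the 78 (42.3%, 32 higher and Rplp0 lower). Over all 16738 genes tested it called 33.3%, with 2578 higher and 2989 lower. Its median for the members was 0.35. Its weight for exercised replicate 4, the low library of its group, was 0.31, against 0.63 to 2.70 for the other 5. Its weights for CSDS replicates 4 and 5, the 2 high libraries of their group, were 0.50 and 0.59, against 1.47 to 3.52 for the other 4. Without the weights, a setting added after seeing the data, limma voom called 0 members and 0.00597% of all genes, and its median was 0.14. DESeq2 called 0 members and 1.01% of all genes. In edgeR without exercised replicate 4 the median was 0.22 with 70 genes positive and 0 called, the smallest member adjusted p being 0.0882. Over all 16856 genes tested, that fit called 144 higher and 481 lower. Without CSDS replicate 4 the member median was 0.21 with 70 positive, and without CSDS replicate 5 it was 0.21 with 69. It was 0.08 with 58 positive without CSDS replicate 3, 0.09 with 59 without exercised replicate 5 and 0.10 with 60 without CSDS replicate 6. In these 5 fits edgeR called 0 members. Over all genes it called 2 higher and 41 lower of 16871 without CSDS replicate 5. Without CSDS replicates 3, 4 or 6 or exercised replicate 5 it called 0 of all genes.

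**Figure D4:**
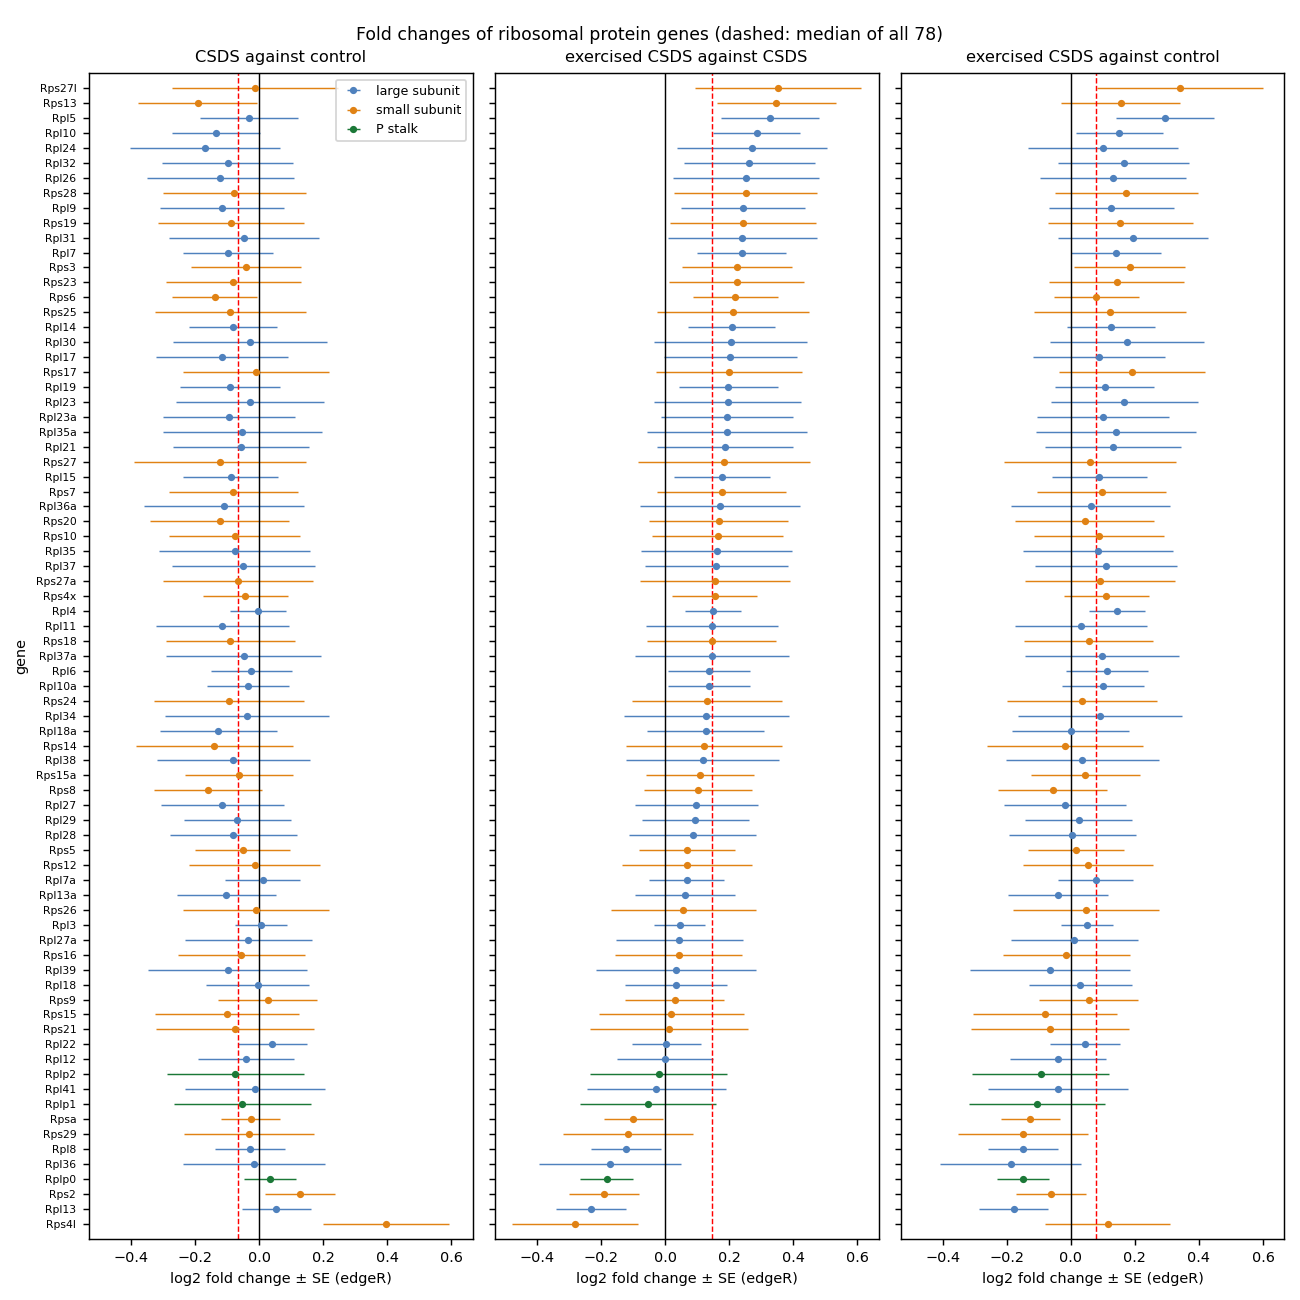
Points are log2 fold changes from edgeR with bars of 1 SE for 77 of the 78 genes in 3 comparisons of 6 against 6 mice, all ordered by exercised CSDS against CSDS; the dashed line is the median of all 78, at -0.07, 0.15 and 0.08. In the middle panel 66 genes drawn are positive, and the 3 P stalk genes lie among the 11 that are not.

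By role, 39 of 43 large subunit genes and 28 of 32 small subunit genes were positive in exercised against unexercised CSDS mice, and 0 of the 3 stalk genes. Below 0 lay Rplp0, Rplp1 and Rplp2 of the stalk, Rpl13, Rpl8, Rpl36 and Rpl41 of the large subunit, and Rps2, Rpsa, Rps29 and Rps4l of the small subunit. The sign of 2 stalk genes depended on the setting: Rplp1 and Rplp2 were at 0.19 and 0.23 under limma voom with quality weights and at 0.13 and 0.11 after the GC correction, and both were positive in edgeR without CSDS replicate 4, CSDS replicate 5 or exercised replicate 4. Rplp0 was negative in this comparison in every setting run. Whether the stalk genes differ from the others was not tested.

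Rplp0, the scaffold of the stalk and a common reference gene in quantitative PCR (chromosome 5, 115559467 to 115563727, plus strand, GENCODE M21 on GRCm38), lay at 238, 283 and 318 CPM in control mice, 264, 289 and 293 CPM in CSDS mice, and 221, 242 and 284 CPM in exercised mice. Exercised replicates 4 and 5 reached into the CSDS range, and the other 4 lay below it. Its log2 fold change, exercised against CSDS, was -0.18 ± 0.08 (SE, n = 6 each, edgeR adjusted p = 0.30). For its log2 CPM, the exact permutation p (two-sided, 924 ways to split the mice) was 0.0216, and 0.195 after Benjamini-Hochberg adjustment over the 9 such tests made of Rplp0, Rpl13a and Rps18 in 3 comparisons. Of the 3 reference genes, Rpl13a differed by 0.07 log2 between these groups (exact permutation p = 0.591) and Rps18 by 0.15 (exact permutation p = 0.424).

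The partners of Rplp0 at the tip of the stalk followed the block more closely. Rplp1 lay at 159, 367 and 421 CPM in control mice, 232, 283 and 442 CPM in CSDS mice, and 192, 328 and 374 CPM in exercised mice. Rplp2 lay at 43.3, 104 and 118 CPM in control mice, 74.0, 77.8 and 116 CPM in CSDS mice, and 53.5, 92.0 and 109 CPM in exercised mice. For both the groups overlapped, the within-group SD was 0.42 against 0.13 for Rplp0, and the log2 fold changes in exercised against CSDS mice were -0.05 and -0.02.

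Rpl13, a large subunit protein (chromosome 8, 123102350 to 123105244, plus strand), lay at 171, 260.1 and 291 CPM in control mice, 229, 259 and 287 CPM in CSDS mice, and 191, 220.0 and 250.1 CPM in exercised mice. Exercised replicate 5 was the only exercised mouse inside the CSDS range, the other 5 lay below it, and control replicate 6 was the lowest of all 18. Its log2 fold change, exercised against CSDS, was -0.23 ± 0.11 (SE, n = 6 each, edgeR adjusted p = 0.311), and -0.05 after the GC correction.

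Rpl5 (chromosome 5, 107900502 to 107909005, plus strand) lay at 19.1, 21.1 and 29.3 CPM in control mice, 15.9, 20.4 and 31.4 CPM in CSDS mice, and 21.9, 28.9 and 34.0 CPM in exercised mice. Of the exercised mice 4 were above all CSDS mice but replicate 4, and the groups overlapped. Its log2 fold change was 0.33 ± 0.15 (SE, n = 6 each, edgeR adjusted p = 0.309), and 0.14 after the GC correction. Rpl11, which joins Rpl5 and the 5S RNA in the particle that restrains Mdm2, had a log2 fold change of 0.15 ± 0.21 (SE).

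Rpl10 (chromosome X, 74270812 to 74273135, plus strand) lay at 61.3, 71.7 and 85.1 CPM in control mice, 48.6, 66.1 and 89.7 CPM in CSDS mice, and 68.6, 78.2 and 94.5 CPM in exercised mice. Its lowest libraries were CSDS replicates 3 and 2 and its highest exercised replicate 4, unlike the block. Its log2 fold change was 0.29 ± 0.14 (SE, n = 6 each, edgeR adjusted p = 0.320), and 0.12 with its near-identical copies added. With the copies, the lowest library was control replicate 6, as for the block. Rps13, a small subunit protein contacting the large one, went from 0.35 ± 0.19 (SE, edgeR adjusted p = 0.361) to 0.11 in the same way.

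Rps27l had the highest fold change of the members, 0.35 ± 0.26 (SE, n = 6 each, edgeR adjusted p = 0.497). It lay at 4.24, 9.45 and 12.7 CPM in control mice, 5.76, 7.45 and 14.3 CPM in CSDS mice, and 6.0, 11.9 and 12.6 CPM in exercised mice. Exercised replicate 4 was far below the other 5, which lay close together, and CSDS replicate 5 was above all of them. For Rps27 the log2 fold change was 0.18 ± 0.27 (SE, edgeR adjusted p = 0.753).

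**Figure D5:**
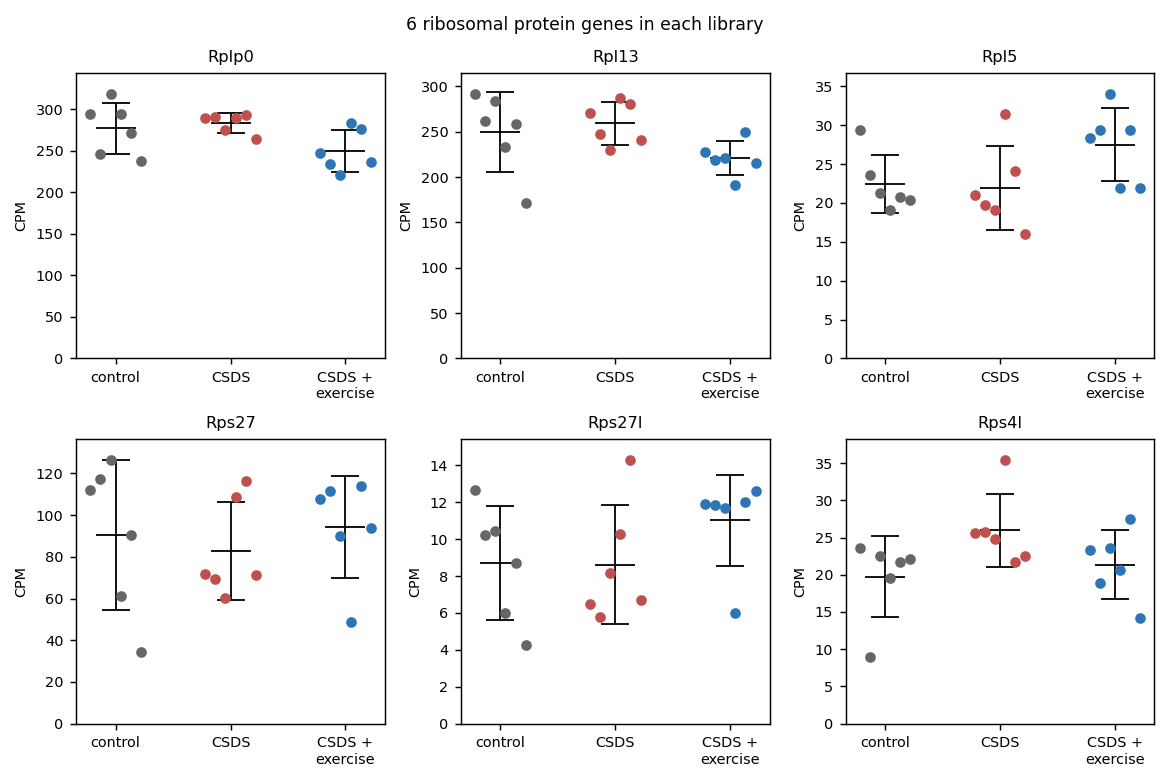
Points are libraries, lines the group mean and SD (n = 6) in CPM for 6 genes. Groups overlap in all 6: Rplp0 is lowest in exercised replicate 3 at 221 CPM, and Rps4l in control replicate 2 at 8.94 CPM.

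Genes with known ties to particular messages, to signalling or to inherited anaemia did not pass edgeR's test either. In exercised against CSDS mice limma voom with quality weights called Rps6 (adjusted p = 0.00669), Rps19 (adjusted p = 0.0214) and Rps25 (adjusted p = 0.0324) higher, and did not call Rpl38, Rpl10a, Rps14 or Rpl41. That method called 33.3% of all genes in this comparison, and limma voom without the weights called 0 members. Rps6, the substrate of S6 kinase used as a mark of mTOR activity, lay at 186, 245 and 308 CPM in control mice, 191, 203 and 306 CPM in CSDS mice, and 230.1, 269 and 288 CPM in exercised mice. The groups overlapped, and its log2 fold change in exercised against CSDS mice was 0.22 ± 0.13 (SE, edgeR adjusted p = 0.414). Rpl38, required for translation of Hox messages in the embryo, had 0.12 ± 0.24, Rps25, used by internal ribosome entry sites, 0.21 ± 0.24, and Rpl10a 0.14 ± 0.13 (SE). Rps19, mutated in Diamond-Blackfan anaemia, had 0.24 ± 0.23 and Rps14, deleted in the 5q- syndrome, 0.12 ± 0.24 (SE). Rpl41, the smallest protein of the set, had -0.03 ± 0.22 (SE).

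The comparison of exercised CSDS with untreated mice spans both treatments. It shares the CSDS-trained libraries with the previous one and the control libraries with the first. Of the 78 genes, 0 were called by edgeR (0.0179% of all genes, 0.0119% higher and 0.00597% lower) and 0 had an unadjusted p under 0.05 (11.2% of all genes, 6.8% higher and 4.39% lower). DESeq2 called 0 members and 0.69% of all genes, and limma voom with quality weights 0 members and 1.09%. The ranges of CPM failed to overlap for 0 of the 78, against 0.562% of all genes. The median log2 fold change was 0.08 with 58 of 78 positive, against 0.01 and 52% over the whole table. The respiratory chain genes had -0.01 with 39 of 80 positive, and the mitochondrial ribosomal protein genes -0.01 with 34 of 78. Leaving out control replicate 6, the member median was -0.05 with 26 positive, without control replicate 4 it was -0.00 with 39 positive, and without control replicate 1 it was 0.15 with 67.

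Members at the 2 ends of this comparison were Rps27l at 0.34 ± 0.26 and Rpl5 at 0.29 ± 0.15 (SE, edgeR adjusted p = 0.627 and 0.478), and Rpl36 at -0.19 ± 0.22 and Rpl13 at -0.18 ± 0.11 (SE, edgeR adjusted p = 0.769 and 0.539). The stalk genes were all 3 negative, Rplp0 at -0.15 ± 0.08, Rplp1 at -0.11 ± 0.21 and Rplp2 at -0.09 ± 0.21 (SE, n = 6 each). With the replicate block and the GC correction together Rplp1 was at 0.06 and Rplp2 at 0.03, and with the GC correction alone Rplp1 was at 0.03.

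Levels within the ribosomal set were compared by scaling the libraries on the 78 genes themselves, a setting added after seeing the data. The medians were then -0.00, 0.01 and -0.02 in the order given above, as the scaling sets them near 0. In exercised against CSDS mice the lowest members were Rps4l at -0.41 ± 0.28, Rpl13 at -0.37 ± 0.15, Rps2 at -0.33 ± 0.16 and Rpl36 at -0.31 ± 0.12 (SE, edgeR adjusted p = 0.974 for each). No member was called in any of the 3 comparisons.

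Tissue markers were set beside the ribosomal genes in the same comparisons. In CSDS against control mice all 8 thalamic markers were negative, with a median log2 fold change of -1.06. Of these, 3 had an unadjusted p under 0.05, where 1.68% of all genes did so downward. All 8 endothelial markers were negative too, with a median of -0.21 and 2 at an unadjusted p under 0.05, as were all 10 choroid plexus markers, with a median of -0.28. Summed levels in control mice ran from 131 to 663 CPM for the thalamic, 302 to 443 CPM for the endothelial and 20.1 to 5567 CPM for the choroid plexus markers. Control replicates 1 and 3, at 360 and 663 CPM, were the only controls whose thalamic sum lay above all CSDS mice. In CSDS mice the endothelial sum ran from 282 to 329 CPM. Neocortical markers were negative in 7 of 8, with a median of -0.44. Dentate markers were positive in 7 of 8 (median 0.14) and CA1 to CA3 pyramidal markers in 8 of 10 (median 0.17). All 5 red blood cell markers tested were positive, with a median of 0.26.

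In exercised against CSDS mice all 8 thalamic markers were positive, with a median log2 fold change of 1.15. Of these, 5 had an unadjusted p under 0.05, where 8.1% of all genes did so upward. Their summed level ranged from 122 to 178 CPM in CSDS and from 133 to 890 CPM in exercised mice. Only exercised replicates 3 and 6, at 384 and 890 CPM, lay above the CSDS range. All 10 choroid plexus markers were negative, with a median of -0.39 and sums of 101 to 8623 CPM in CSDS and 67.7 to 6699 CPM in exercised mice. Endothelial markers were positive in 6 of 8, with a median of 0.08. Dentate markers were positive in 5 of 8 (median 0.17) and pyramidal markers in 3 of 10 (median -0.24). Neocortical markers were positive in 3 of 8 (median -0.03) and red blood cell markers in 1 of 5 (median -0.08). In exercised against control mice the choroid plexus markers were negative in 10 of 10, with a median of -0.66, and the thalamic markers in 4 of 8. None of these markers was called by edgeR in the 3 comparisons. All of them passed the filter on low counts apart from the red blood cell list, where 5 of 6 did. Their part in the ribosomal values was not tested.

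Ribosomal genes whose symbols the rule does not match included Rps3a1, Rpl36al, Rpl22l1, Rpl7l1, Rps27rt, the fusion gene Fau, which encodes a ribosomal protein joined to a ubiquitin-like part, and Rack1, a signalling scaffold on the small subunit head. All 8 such genes tested missed the threshold in the 3 comparisons, and their median log2 fold changes were -0.09, 0.14 and 0.04. Rack1 varied as little as Rplp0, with a within-group SD of 0.13, and averaged 191 ± 24.5 CPM in control, 191 ± 8.98 CPM in CSDS and 172 ± 9.89 CPM in exercised mice (SD, n = 6 each). Its log2 fold change in exercised against CSDS mice was -0.15 ± 0.08 (SE, edgeR adjusted p = 0.374) beside the -0.18 of Rplp0. Fau, with an SD of 0.40, had its lowest level in control replicate 6, as did the members.

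The rest of the translation pathway showed no calls by edgeR in these lists. Of 20 translation factors and other TOP genes, 0 passed in exercised against CSDS mice, 0 and 2 had an unadjusted p under 0.05 upward and downward, where 8.1% and 7.46% of all genes did, and the median log2 fold change was 0.11. Eef2, the translocase that docks on the stalk, averaged 1552 ± 227 CPM in CSDS and 1277 ± 284 CPM in exercised mice (SD, n = 6 each), a log2 fold change of -0.28 ± 0.14 (SE, edgeR adjusted p = 0.324). The within-group SD of this list had a median of 0.20, against 0.40 for the ribosomal protein genes.

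Of 45 ribosome assembly factors, 0 passed in the 3 comparisons, and 4 upward and 2 downward had an unadjusted p under 0.05 in exercised against CSDS mice, beside 8.1% and 7.46% of all genes. Dimt1, which methylates the small subunit RNA, averaged 7.96 ± 0.78 CPM in CSDS and 10.9 ± 1.63 CPM in exercised mice (SD), a log2 fold change of 0.45 ± 0.12 (SE, edgeR adjusted p = 0.198). Rrs1, which brings the 5S particle with Rpl5 and Rpl11 into the large subunit, had -0.30 ± 0.11 (SE, edgeR adjusted p = 0.251). Of 20 genes of RNA polymerase I and its factors 0 passed, with Taf1d, a subunit of its promoter selectivity factor, at 0.51 ± 0.16 (SE, edgeR adjusted p = 0.206).

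Of 21 genes of the mTOR pathway and of proteins that bind TOP messages, 0 passed in the 3 comparisons, and in exercised against CSDS mice 4 upward and 2 downward had an unadjusted p under 0.05, against 8.1% and 7.46% of all genes. The genes named from this list are those with the smallest p. Akt1s1, which encodes the mTORC1 inhibitor PRAS40, averaged 48.8 ± 6.85 CPM in CSDS and 33.8 ± 4.34 CPM in exercised mice (SD, n = 6 each), a log2 fold change of -0.53 ± 0.11 (SE, edgeR adjusted p = 0.143). Eif4ebp1, the translational repressor that mTORC1 inactivates, had -0.55 ± 0.17 (SE, edgeR adjusted p = 0.201) and Larp4, a poly(A)-binding protein, 0.41 ± 0.11 (SE, edgeR adjusted p = 0.198). Tia1, which binds TOP messages under stress, had 0.62 ± 0.13 in exercised against control mice (SE, edgeR adjusted p = 0.116).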

How the data were processed

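One library per mouse was made from poly(A)-enriched hippocampal RNA with a stranded kit, per the labels' protocols. The authors deposited estimated counts per gene, made with the tools fastp, HISAT2 and RSEM on GRCm38 (mm10), as named in the submitters' processing notes. For versions, strand setting and annotation release, nothing is given in the sources used here. Of nonzero values 22.7% were not whole; all were rounded. Gene names matched 51884 identifiers and left 5296 (0.62% of counts) without one. Genes were filtered (filterByExpr, minimum count 10, total 15), scaled by TMM and tested with edgeR 4.0.16 (R 4.3.3; quasi-likelihood F test, 1 term per group, all 18 libraries), adjusted over all genes tested and called under 0.05. Scripts were tested on simulated data. All samples carry 1 batch label. All 45 replicate pairs differed beyond sampling noise.

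Members and lists were chosen with earlier results of these data known. Named were 26 fixed members and, per comparison, the 5 with the smallest p, those farthest from the member median or at either end of level per kilobase, and up to 3 genes of each list with the smallest p; others were chosen after their values were seen. Individual values of a member and of a gene outside the rule are not reported here; both count in totals and medians, apart from the check for outlying libraries. Lengths and copies came from GENCODE M21, start regions from RefSeq. The length of each gene, also in levels per kilobase, was that of its shortest transcript with the coding length of the best-ranked one. Alternatives were DESeq2 1.42.0, limma 3.58.1 voom, other scalings and filters, GC and length corrections (lowess, span 0.3), copies added, a replicate block, and leaving out each library.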

Additional observations from a re-analysis of the deposited data

Results flagged for a closer look

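In groups of 6, a library was looked at again where its gap to the nearest of the others exceeded Dixon's 95% limit over the group's range; chance flags about 1 in 20 groups. Of 105 groups of values (the named members reported here and the member median in 3 groups), 14 met this, and 12 of them were 1 library, exercised replicate 4. In it the member median was 6.52 log2 CPM, and the levels were 6.83 for Rpl11, 6.43 for Rpl24, 4.97 for Rpl36, 5.18 for Rpl39, 7.47 for Rps14, 7.49 for Rps15, 6.05 for Rps19, 6.65 for Rps25, 5.61 for Rps27, 2.61 for Rps27l and 5.88 for Rps29, all below the other 5 mice. These flags share 1 mouse and are not independent. That library also had the smallest share of counts from mitochondrially encoded genes, 1.71%, and a respiratory chain median of 5.53 log2 CPM against 6.38 to 6.53 in the other 5 of its group.

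Rps4l accounts for the other flags. It was low in control replicate 2 at 3.18 log2 CPM and high in CSDS replicate 4 at 5.15 log2 CPM.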

How the results depend on the processing

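No member was called in CSDS against control or exercised CSDS against control under any setting run, and in exercised CSDS against CSDS only limma voom with quality weights called any, 33. Leaving out each library, the member median ranged from -0.19 to 0.01, from 0.08 to 0.22 and from -0.05 to 0.15 in CSDS against control, exercised against CSDS and exercised against control. Under the other settings it ranged from -0.24 to -0.00, 0.01 to 0.35 and -0.02 to 0.11. The ends at -0.00, 0.01 and -0.02 came from scaling on the 78 genes themselves, which sets the median near 0. Without that setting these ends were -0.02 (limma voom without quality weights), 0.08 (length correction) and 0.04 (no filter). With the length correction the median in exercised against CSDS was 0.08 with 58 positive. With the replicate block the medians were -0.03, 0.13 and 0.10 and 0 members were called. Same-number libraries correlated from -0.47 to 0.25 over 18 pairs, with 1 above 0.1. No pairing of mice by number was seen, though such correlations cannot exclude one. Across 105 named results, 13 passed the threshold under voom with quality weights. Counted over every result in every alternative setting, 281 uncalled values changed sign and 3486 values kept both sign and call status. After the GC correction Rps4l was at 0.04 in exercised against CSDS, from -0.28; the cause was not tested.

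With 6 mice per group, standard errors of single members in exercised against CSDS ran from 0.08 (Rpl3) to 0.27 (Rps27) log2. Shifts within these errors were not detectable. Larger ones also went uncalled, such as those of Rplp0 and Rpl5, so an SE is not a limit of detection. RNA integrity per mouse was not analysed here, and sharing of reads with processed copies limits Rpl10, Rpl27a, Rps13 and Rps23.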
